A study of Mus musculus with 15 samples.

Results

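The 44 collagen genes of the mouse pituitary were followed in whole glands of mice that lacked the pituitary enhancer (PE) of Nr5a1 on one or both chromosomes. They were all the genes of the count table, 44 of 55523, whose symbol had the form Col, a type number, the letter a and a chain number, and each symbol had a single entry. Nr5a1 encodes the nuclear receptor Ad4BP/SF-1, which the pituitary makes in gonadotropes, the cells that secrete luteinizing and follicle-stimulating hormones. The PE, in intron 6 of the gene, had been deleted by CRISPR/Cas9. Animals with the deletion on one chromosome (PE+/−) were fertile and served as controls, so the control animals also carried a deleted copy, and animals with both copies deleted (PE−/−) were infertile in both sexes. Libraries were made from RNA of whole pituitary glands, 4 in each group of males, 4 for the control females and 3 for the females that lacked both copies. Ages of these glands were not given in the labels, and neither was the number of animals behind a library. Where replicates share a source, p-values measure only the spread between these libraries.

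Collagens are helical proteins of several intertwined chains that are made in the endoplasmic reticulum, trimmed after secretion and assembled outside the cell. Fibrillar collagens form the cables of connective tissue, type IV collagens form the sheet-like network of basement membranes around vessels and cell cords, type VI forms beaded filaments, and a few types span the cell membrane. In the pituitary, stromal cells and the pericytes of the capillaries are known sources of fibrillar collagen, and the gland consists of an endocrine anterior part and a neural posterior lobe.

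The libraries held from 12982794 to 30238443 estimated counts. Values are given as CPM, counts scaled to a common library total, and 12 counts in a library, about 3 fragments, were taken as the floor of detection. Nr5a1 stood at 34.8 to 80.1 CPM in PE+/− males and 33.7 to 45.4 CPM in PE+/− females, against 0 to 0.739 CPM and 0.617 to 0.896 CPM in PE−/− males and females, so every library matched its genotype label. In 4 male libraries the posterior lobe markers Rax, Nkx2-1, Lhx2 and Scn7a summed to 26.4 to 103.6 CPM, against 0 to 4.13 CPM in the other 11, and results that rest on these 4 libraries are given with and without them. They were replicates 2 and 4 of the PE+/− males and replicates 3 and 4 of the PE−/− males. Of the 44 collagens, 5 (Col4a6, Col6a5, Col10a1, Col20a1 and Col22a1) were at or under the floor in every library, and Col6a5 was at 0 throughout. After the filter on low counts, 32 collagens could be tested in males, 30 in females, 29 between the sexes in PE+/−, 33 between the sexes in PE−/− and 36 for the interaction of genotype and sex.

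Col1a2 was the collagen on which the results turned. It encodes the alpha2 chain of type I collagen, the main fibril protein of connective tissue, and its annotated locus was chr6:4504814-4541544 on the plus strand of GRCm38 (mm10), with 52 exons in its longest coding transcript. The promoter sequence of Col1a2 is shown beside those of Col3a1, another fibril collagen whose level did not pass any test here, and Col11a1, a fibril regulator with a different pattern. Each is the stretch of 123 bases just before the annotated start of a transcript that spans the gene (RefSeq promoter table, GRCm38.p6, plus strand, 5′ to 3′), and lies at chr6:4505370-4505492, chr1:45311415-45311537 and chr3:114030417-114030539. For Col1a2 this stretch lies within an intron of a shorter, upstream transcript. Capitals mark the GC box GGGCGG, the TATA box TATAAA and the CCAAT box, which reads ATTGG on the printed strand.
Col1a2: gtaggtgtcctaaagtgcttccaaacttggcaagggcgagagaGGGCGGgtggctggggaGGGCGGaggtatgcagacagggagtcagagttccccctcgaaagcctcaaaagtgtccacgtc
Col3a1: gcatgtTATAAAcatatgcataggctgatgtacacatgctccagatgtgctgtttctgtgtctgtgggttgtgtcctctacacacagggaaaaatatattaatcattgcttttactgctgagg
Col11a1: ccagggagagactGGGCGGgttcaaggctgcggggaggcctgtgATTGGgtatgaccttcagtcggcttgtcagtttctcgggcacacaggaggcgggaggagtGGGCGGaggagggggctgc

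In these letters Col1a2 and Col11a1 each held 2 GC boxes, Col11a1 held a CCAAT box and Col3a1 held the TATA box. Searched on both strands, the GC box was in the windows of 19 of the 35 collagens with an entry and in 26.7% of all 32851 promoter windows of the same length, the CCAAT box in 6 of 35 and 21.6%, and the TATA box in 3 of 35 and 6.48%. The Ad4BP/SF-1 motif CAAGGTCA was in the window of 1 collagen, Col9a1, and in 0.551% of all windows. A collagen was counted if any of its windows matched, and Col6a2, Col9a1 and Col18a1 had more than 1 window. The percentages count single windows, so the 2 measures differ slightly. A match describes letters only, and these windows are short.

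Col1a2 was high in one of the 4 groups, the PE+/− females. Replicates 1 to 4 of the PE+/− females had 159.8, 166.1, 133.4 and 199.0 CPM, and the PE−/− females had 56.0, 36.3 and 36.3 CPM. The PE+/− males had 45.4, 63.5, 48.6 and 58.3 CPM, and the PE−/− males had 42.9, 29.0, 28.2 and 72.2 CPM. All 4 libraries of PE+/− females stood above the other 11 libraries, while the other 3 groups overlapped one another. The group means were 164.6 ± 27.0 CPM in PE+/− females (SD, n = 4), 42.8 ± 11.4 in PE−/− females (n = 3), 54.0 ± 8.41 in PE+/− males (n = 4) and 43.1 ± 20.6 in PE−/− males (n = 4).

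In females, the comparison of PE−/− with PE+/− asked which genes differed when the second enhancer copy was also lost. Col1a2 fell by 1.95 on the log2 scale (SE 0.23, edgeR quasi-likelihood adjusted p = 0.0207), a ratio of group means of 3.84, and was lower in all 3 PE−/− libraries than in all 4 PE+/− libraries. It was the only collagen past the threshold, 1 of 30 tested, where 1.05% of all 18085 genes tested passed. DESeq2 called 3 collagens, Col1a2, Col25a1 and Col27a1, beside 7.96% of all genes. The call was lost when any of 3 libraries was left out (PE+/− female replicate 2 and PE−/− female replicates 2 and 3), with log2 fold changes of −1.95, −1.85 and −1.84 and edgeR adjusted p of 0.0623, 0.0882 and 0.0952. In a bulk sample such as this, fewer cells of a type and less RNA per cell cannot be told apart.

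In males the same comparison gave −0.33 for Col1a2 on the log2 scale (SE 0.31, edgeR adjusted p = 0.972), and the groups overlapped. The 95% interval of that change ran from −1.08 to 0.42, and the interval in females from −2.53 to −1.37. The test of the difference between the sexes gave an interaction of −1.62 on the log2 scale (SE 0.41, unadjusted p = 0.00157, edgeR adjusted p = 0.158), which did not pass over all genes. DESeq2 placed it past the threshold (adjusted p = 0.013).

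Between the sexes, Col1a2 was higher in PE+/− females than in PE+/− males by 1.61 on the log2 scale (SE 0.17, edgeR adjusted p = 0.00773), a ratio of means of 3.05. It was again the only collagen past the threshold, 1 of 29 tested against 0.67% of 17163 genes. DESeq2 called 4, Col1a2, Col4a4, Col11a1 and Col23a1, beside 5.25% of all genes. This comparison and the one within females share the 4 PE+/− female libraries. Without the 2 PE+/− male libraries that held posterior lobe transcripts the difference was 1.80 (edgeR adjusted p = 0.0764), with 2 male libraries left. In PE−/− animals the sexes had nearly equal means, with a ratio of 1.01 and a log2 difference of −0.01 (SE 0.36, edgeR adjusted p = 0.998).

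**Figure D1:**
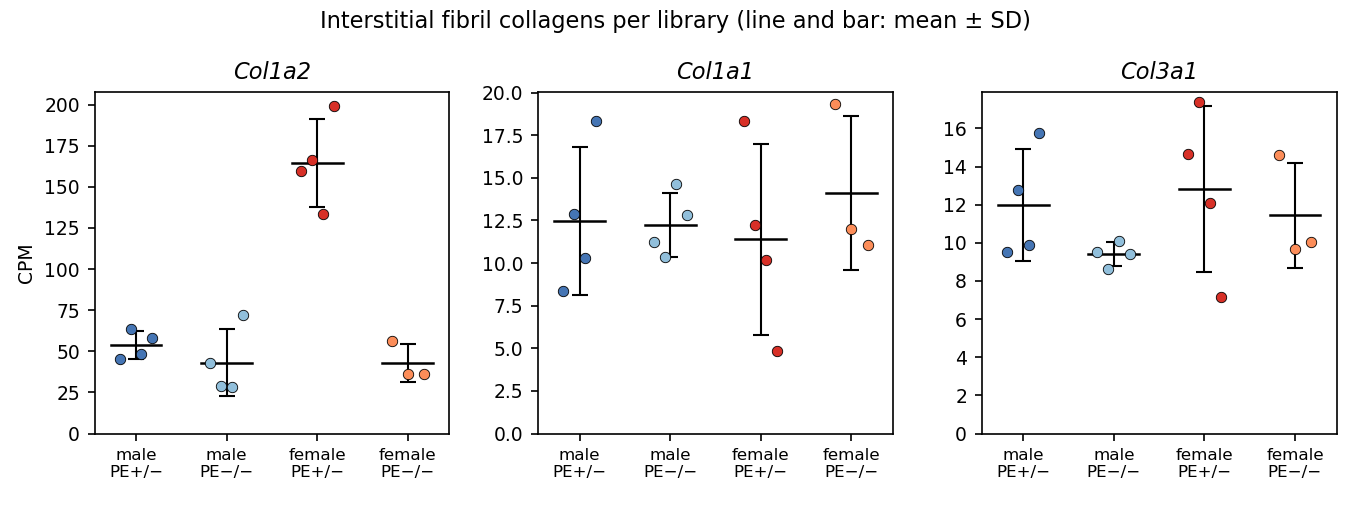
CPM of Col1a2, Col1a1 and Col3a1 in each library (points) of the 4 groups, with the group mean (line) and SD (bar), each panel on its own axis from 0. Col1a2 stood at 133.4 to 199.0 CPM in PE+/− females and at no more than 72.2 CPM elsewhere, while Col1a1 and Col3a1 overlapped between all groups.

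The partner chains did not move with Col1a2. Col1a1, at chr11:94936224-94953042 on the plus strand, encodes the alpha1 chain that joins the alpha2 chain in type I collagen. It had 18.4, 12.3, 10.2 and 4.82 CPM in PE+/− females and 19.3, 11.99 and 11.03 CPM in PE−/− females, and its log2 fold change in females was 0.30 (SE 0.43, edgeR adjusted p = 0.818). The values were 8.38, 12.9, 10.3 and 18.4 CPM in PE+/− males and 11.2, 10.3, 14.6 and 12.8 CPM in PE−/− males, a change of −0.03 on the log2 scale (SE 0.25, edgeR adjusted p = 0.996) whose sign depended on the normalization and on single libraries. The groups overlapped in both sexes, and the intervals of the change (−0.82 to 1.41 in females and −0.64 to 0.59 in males) leave room for a sizeable difference either way.

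Within PE+/− females the 2 chains did not even share their order, since replicate 4 held the most Col1a2 and the least Col1a1. Per kilobase of the longest coding transcript, Col1a2 stood at 9.66 to 45.8 times the level of Col1a1 in PE+/− females. The ratio was 3.21 to 3.65 in PE−/− females, 3.53 to 6.01 in PE+/− males and 2.14 to 6.26 in PE−/− males. The ratio thus exceeded 1 in every library and was higher in all PE+/− female libraries than in the other 11.

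Col3a1, the chain of type III collagen of soft tissues and vessel walls, lies at chr1:45311538-45349706 on the plus strand and shares exon bases with an annotated miRNA gene. It had 14.7, 17.4, 12.1 and 7.13 CPM in PE+/− females, 14.6, 9.67 and 10.1 CPM in PE−/− females, 9.51, 12.8, 9.87 and 15.8 CPM in PE+/− males and 9.499, 8.61, 10.1 and 9.44 CPM in PE−/− males. Its log2 fold changes with genotype were −0.18 in females (SE 0.32, edgeR adjusted p = 0.864) and −0.35 in males (SE 0.19, edgeR adjusted p = 0.904). The ranges overlapped in both sexes.

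Col1a2 alone made up 44.7% to 59.5% of the summed CPM of all collagens in PE+/− females and 12.2% to 31.1% in the other libraries. The sum over all 44 genes was 298.5 to 334.2 CPM in PE+/− females and 164.2 to 219.6 CPM in PE−/− females, which did not overlap. Without Col1a2 the sums were 135.2 to 165.1 and 128.0 to 163.7 CPM, which did. Col1a2 also had the highest mean level per kilobase in each group, from 8.01 CPM per kb in PE−/− females to 30.8 in PE+/− females. Next in PE+/− females came Col6a1 (group mean of 2.85 CPM per kb) and then Col8a1 (2.63). In PE−/− females Col8a1 (2.72) came before Col6a1 (2.62). Neither gene differed between these groups beyond its spread. In PE+/− males Col25a1 came second, at 3.59 ± 4.35 CPM per kb (SD, n = 4), a mean set by single libraries.

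Marker lists of several cell types were summed in the same groups. Between genotypes, the pericyte and smooth muscle sums did not overlap in either sex, and the stem and folliculostellate sums did not overlap in females. The summed CPM of 10 pericyte and smooth muscle markers was 439.5 to 943.9 in PE+/− females and 302.7 to 383.0 in PE−/− females, and 438.5 to 630.2 in PE+/− males and 237.3 to 426.6 in PE−/− males. Nearly all of it was Rgs5, a pericyte regulator of G protein signalling, at 396.4 to 887.9 CPM in PE+/− females and 262.6 to 315.8 CPM in PE−/− females (log2 fold change −1.21, SE 0.29, edgeR adjusted p = 0.10). In males Rgs5 was at 387.1 to 587.1 CPM in PE+/− and 202.9 to 384.4 CPM in PE−/−, a narrow separation. Without Rgs5 the sums were 43.3 to 72.9 and 40.0 to 67.2 CPM in females. They were 37.8 to 53.2 and 34.4 to 42.55 CPM in males, so they overlapped in both sexes. The smooth muscle myosin Myh11 was at or under the floor everywhere.

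Of the skeletal markers, 7 of 12 were at or under the floor in every library, Acan, Bglap and Sp7 among them, and the sum of 57.2 to 174.8 CPM in PE+/− females against 36.1 to 58.7 CPM in PE−/− females was mostly Hapln1, a link protein of hyaluronan. The red cell list summed to 570.4 to 1345 CPM in PE+/− females and 383.7 to 790.1 CPM in PE−/− females. The 8 fibroblast markers summed to 127.7 to 160.3 CPM and 143.4 to 156.0 CPM in these groups. The 6 stem and folliculostellate markers went the other way, at 92.4 to 141.3 CPM in PE+/− females and 151.3 to 225.1 CPM in PE−/− females, without overlap. All 6 had a log2 fold change above 0 in females, 0 passed in edgeR and DESeq2 called 2, Sox9 and Aldh1a2, beside 7.96% of all genes. In males all 6 were also above 0 and 0 passed in either tool. Their male sums, 84.15 to 198.7 CPM in PE+/− and 164.9 to 201.7 CPM in PE−/−, overlapped. Of the 10 endothelial markers, 9 were lower in PE−/− females and 0 passed in either tool, and their sums, 165.3 to 211.4 and 141.6 to 165.5 CPM, barely overlapped. In males all 10 were lower in PE−/− and 0 passed in either tool. The endothelial sums in males, 124.3 to 407.3 CPM in PE+/− and 118.6 to 143.5 CPM in PE−/−, overlapped. The part of these cells in the Col1a2 difference was not tested.

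Col11a1 (chr3:114030540-114220718, plus strand) encodes a chain of type XI collagen, a minor partner that sets fibril width. It was low in PE+/− males, with 3.03, 7.18, 3.29 and 6.59 CPM. The PE−/− males had 14.9, 12.2, 8.43 and 10.2 CPM, the PE+/− females 12.3, 13.5, 10.4 and 16.8 CPM and the PE−/− females 14.4, 15.9 and 13.3 CPM. All 4 PE+/− male libraries were below the other 11 libraries. No test on Col11a1 passed over all genes in the main quasi-likelihood fits, each on the libraries compared.

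The log2 fold change of Col11a1 with genotype in males was 1.18 (SE 0.33, unadjusted p = 0.00701, edgeR adjusted p = 0.463). Females exceeded males in PE+/− by 1.40 (SE 0.32, edgeR adjusted p = 0.112). DESeq2 and the quasi-likelihood fit on all 15 libraries placed this difference past the threshold (adjusted p of 0.00341 and 0.0242). Within females the change was 0.13 (SE 0.19, edgeR adjusted p = 0.822), and the interaction was −1.04 (SE 0.41, edgeR adjusted p = 0.402). The 2 PE+/− male libraries with posterior lobe transcripts held the higher values of their group (7.18 and 6.59 CPM), and the 2 such PE−/− libraries the lower ones of theirs (8.43 and 10.2 CPM). Without these 4 libraries the genotype change in males was 2.09 (SE 0.27, edgeR adjusted p = 0.217), the difference between the sexes in PE+/− 2.06 (SE 0.27, edgeR adjusted p = 0.102) and the interaction −1.94 (SE 0.32, edgeR adjusted p = 0.167), with 2 libraries left in each male group.

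In males 0 of 32 collagens passed in edgeR, where 0.132% of 17392 genes did, and DESeq2 called 0, beside 1.22% of all genes. At an unadjusted p under 0.05 there were 2 higher and 0 lower, where 3.34% of all genes were higher and 2.79% lower. The second was Col6a3, the long alpha3 chain of type VI collagen, with 0.563, 0, 0 and 0 CPM in PE+/− males and 0.808, 1.45, 0.749 and 1.42 CPM in PE−/− males. All PE+/− male libraries were at or under the floor, so the change can be stated only as at least 1.52-fold higher against the mean floor of that group. Females had 0.937, 0.921, 0.816 and 1.77 CPM of Col6a3 in PE+/− and 1.30, 2.10 and 1.71 CPM in PE−/−. In the male comparison it passed the low-count filter through the PE−/− males alone, so its place in this count was set by the filter. Of the 32 collagens, 2 were higher in PE−/− males without overlap, Col11a1 and Col6a3, the latter subject to the same limit, beside 2.54% of all genes. The median log2 fold change of the 32 collagens was −0.12 against 0.003 over all genes tested, with 11 above 0 and 21 below.

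**Figure D2:**
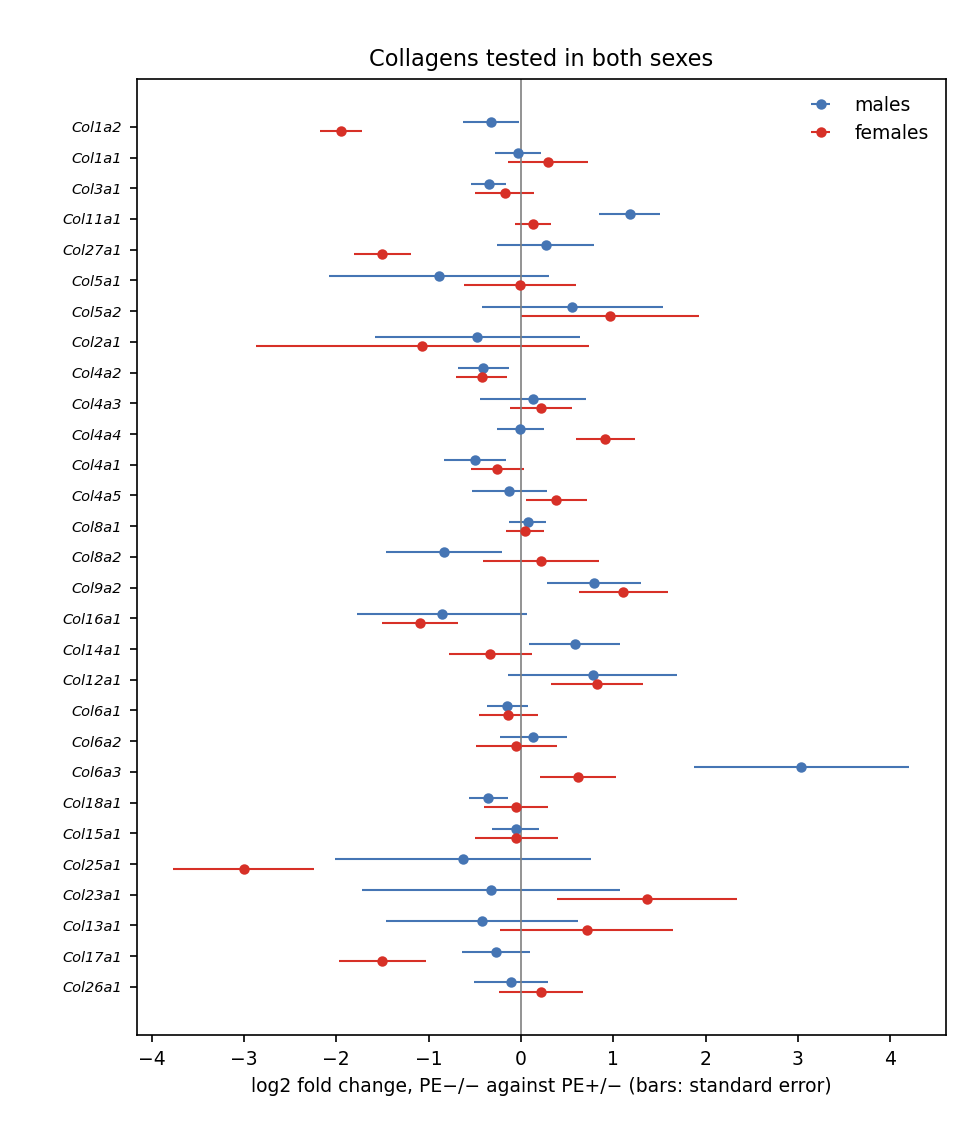
Log2 fold change of PE−/− against PE+/− with its standard error (bars) for the collagens tested in both males and females, ordered by class. Col1a2 lay at −1.95 in females and −0.33 in males, and Col11a1 lay at 1.18 in males and 0.13 in females.

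In females 6 of the 30 collagens tested had an unadjusted p under 0.05, 5 of them lower in PE−/− and 1 higher, where 8.39% of all genes were lower and 7.75% higher. The median log2 fold change of the 30 was −0.03 against 0.002 over all genes. Groups did not overlap for 5 collagens that were lower and 2 that were higher, beside 8.95% and 9.64% of all genes. Beside Col1a2 the lower ones were Col27a1, Col25a1, Col17a1 and Col16a1, none of which passed over all genes in edgeR. For Col25a1 and Col17a1 the PE−/− females alone would not have met the low-count filter, so their place in these counts rests on the PE+/− females. The higher ones without overlap were Col4a4 and Col23a1, the latter with an edgeR unadjusted p of 0.2008. Col4a4 stood apart by a very narrow margin, at 5.984 CPM in PE+/− replicate 3 and 5.994 CPM in PE−/− replicate 3.

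Col27a1, a fibrillar collagen known from cartilage (chr4:63214004-63334991), had 2.26, 2.84, 3.10 and 3.96 CPM in PE+/− females and 1.30, 0.989 and 0.963 CPM in PE−/− females. The groups did not overlap, and the log2 fold change was −1.50 (SE 0.31, edgeR adjusted p = 0.0766), which DESeq2 called (adjusted p = 0.00118). Males had 0.563, 0.649, 2.01 and 1.55 CPM in PE+/− and 1.01, 0.842, 2.20 and 1.71 CPM in PE−/− (log2 fold change 0.27, SE 0.53, edgeR adjusted p = 0.988). PE+/− females lay above PE+/− males without overlap, by 1.35 (SE 0.45, edgeR adjusted p = 0.242), and the interaction was −1.76 (SE 0.64, edgeR adjusted p = 0.344).

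Col17a1, a transmembrane collagen of the hemidesmosomes that anchor epithelia, had 2.11, 1.51, 3.16 and 3.11 CPM in PE+/− females and 0.926, 1.24 and 0.438 CPM in PE−/− females (log2 fold change −1.50, SE 0.48, edgeR adjusted p = 0.1796). Col16a1, which associates with fibril surfaces, had 1.87, 2.47, 4.84 and 5 CPM against 1.79, 1.85 and 1.36 CPM (log2 fold change −1.09, SE 0.42, edgeR adjusted p = 0.253). In both the groups stood apart, for Col16a1 by a narrow margin. Males had 3.17, 2.46, 2.498 and 1.16 CPM of Col17a1 in PE+/− and 1.21, 1.91, 2.62 and 1.93 CPM in PE−/−. They had 2.82, 1.44, 0 and 1.16 CPM of Col16a1 in PE+/−. Both are low, with at most 89 counts in a female library for Col16a1 and 58 for Col17a1.

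**Figure D3:**
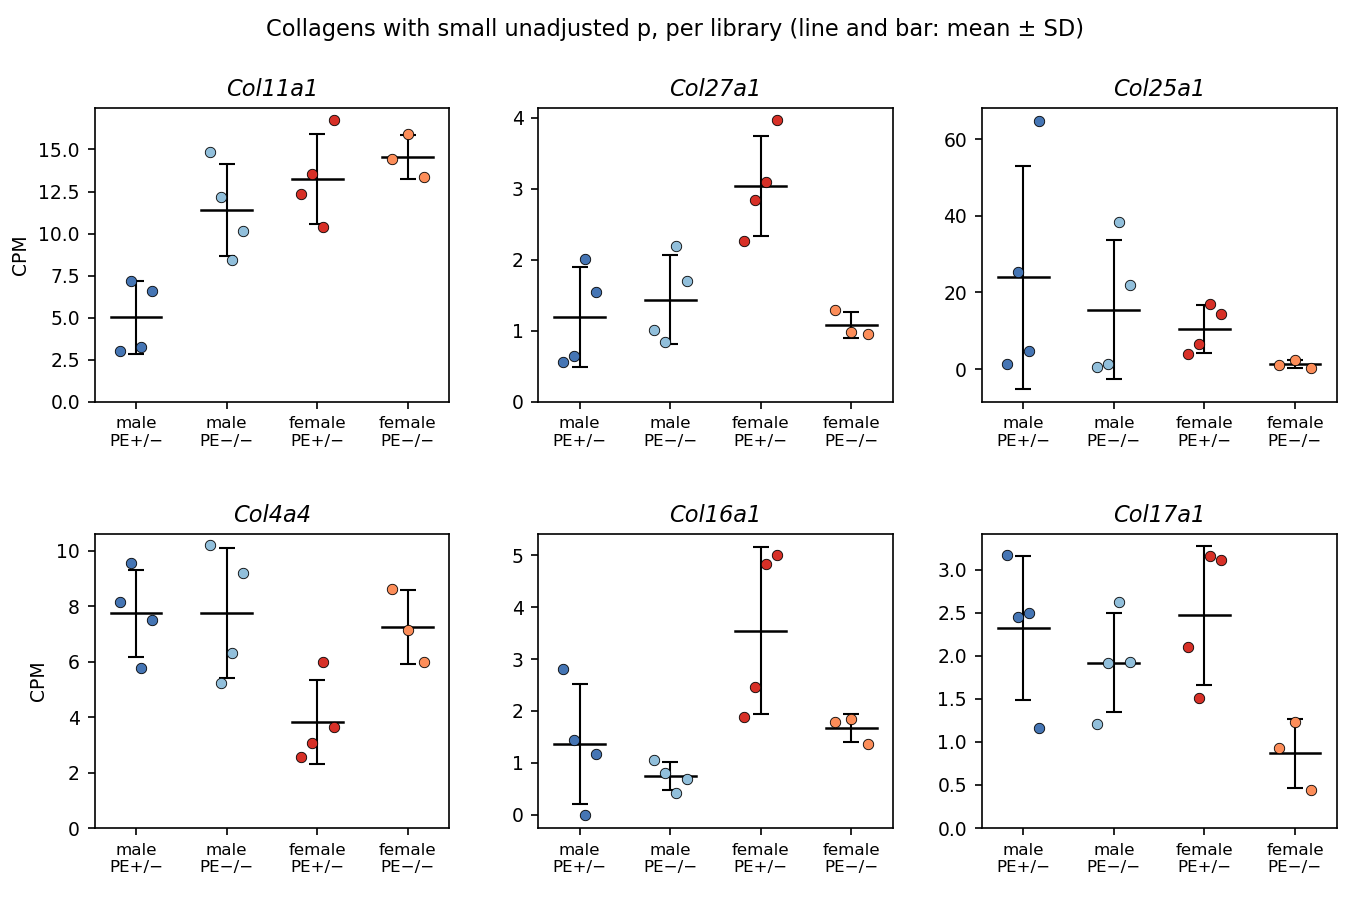
CPM of Col11a1, Col27a1, Col25a1, Col4a4, Col16a1 and Col17a1 in each library (points) by group, with the mean (line) and SD (bar). Col11a1 was lowest in PE+/− males at 3.03 to 7.18 CPM, and Col27a1 was highest in PE+/− females at 2.26 to 3.96 CPM.

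The basement membrane chains showed no called change. Col4a1 and Col4a2, the chains of the common type IV network, lie head to head on opposite strands at chr8:11198423-11312826 and chr8:11312805-11449287, and 22 exon bases of the annotation overlap. Col4a1 had 3.83, 4.48, 3.81 and 2.26 CPM in PE+/− females, 3.27, 3.15 and 2.67 CPM in PE−/− females, 3.17, 3.15, 4.33 and 5.30 CPM in PE+/− males and 4.19, 1.91, 1.92 and 3.30 CPM in PE−/− males. Col4a2 had 14.2, 12.9, 18.9 and 13.2 CPM, 15.4, 10.6 and 7.35 CPM, 12.6, 12.6, 7.74 and 10.3 CPM, and 12.2, 5.70, 6.55 and 8.24 CPM in the same order. The groups overlapped with genotype in both sexes, at log2 fold changes of −0.26 and −0.42 in females and −0.50 and −0.41 in males for Col4a1 and Col4a2 (edgeR adjusted p from 0.528 to 0.967).

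Col4a3 and Col4a4, chains of the network of the kidney filter and other special basement membranes, also lie head to head (chr1:82586921-82722059 and chr1:82448423-82586849). Col4a4 had 2.58, 3.06, 5.98 and 3.66 CPM in PE+/− females and 8.64, 7.14 and 5.99 CPM in PE−/− females (log2 fold change 0.92, SE 0.32, edgeR adjusted p = 0.219). Its values were 8.17, 9.55, 5.79 and 7.49 CPM in PE+/− males and 10.2, 5.24, 6.32 and 9.21 CPM in PE−/− males. PE+/− females were the low group, 1.02 below PE+/− males on the log2 scale (edgeR adjusted p = 0.190, DESeq2 adjusted p = 0.0431), and the highest PE+/− female library, at 5.98 CPM, lay just inside the range of both male groups.

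Col4a3 ranged from 5 to 12.5 CPM in females and from 5.43 to 9.22 CPM in males, except for 0.881 CPM in replicate 2 of the PE+/− males, where Col4a4 stood at 9.55 CPM. Col4a3 shares 563 exon bases with a transcript on the opposite strand, and whether the counts used strand is not known, so its values are uncertain. Col4a5 stood at 1.06 to 4.46 CPM over all libraries.

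Col6a1, a chain of the beaded filaments that all connective tissues hold (chr10:76708792-76726168), had 14.1, 14.98, 11.1 and 6.59 CPM in PE+/− females and 12.8, 7.76 and 11.6 CPM in PE−/− females. The PE+/− males had 10.2, 12.5, 8.96 and 16.0 CPM and the PE−/− males 9.40, 9.22, 13.1 and 11.4 CPM. Groups overlapped throughout, with log2 fold changes of −0.14 in females (SE 0.32, edgeR adjusted p = 0.901) and −0.15 in males (SE 0.22, edgeR adjusted p = 0.985). Col8a1, a short chain of the hexagonal networks under endothelia, was among the steadiest, with group means of 13.05 to 13.87 CPM.

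In males the transmembrane collagens Col13a1, Col23a1 and Col25a1 followed single libraries rather than genotype. Col13a1 is a collagen of muscle and nerve contacts, and Col25a1 is made by neurons. Col25a1 had 1.27, 25.4, 4.75 and 64.7 CPM in PE+/− males and 0.606, 1.22, 38.4 and 22.0 CPM in PE−/− males. Col23a1 had 0.634, 15.6, 0.487 and 34.9 CPM and 0.859, 1.34, 24.9 and 14.3 CPM in these groups, and Col13a1 had 2.54, 2.60, 1.89 and 25.1 CPM and 0.960, 1.99, 11.4 and 9.67 CPM.

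For Col25a1 and Col23a1 the high male libraries were the same 4 that held posterior lobe transcripts. For Col13a1 they were 3 of these 4, since replicate 2 of the PE+/− males, at 2.60 CPM, stood beside replicate 1 at 2.54 CPM, which lacked such transcripts. Their posterior lobe markers summed to 45.1 and 103.6 CPM in replicates 2 and 4 of the PE+/− males and to 56.1 and 26.4 CPM in replicates 3 and 4 of the PE−/− males, most of it the sodium channel gene Scn7a, and Rax, Nkx2-1 and Lhx2 were all above 0 in these libraries. The 3 collagens summed to 43.6, 124.7, 74.7 and 45.9 CPM there and to 2.43 to 19.3 CPM in the other 11. The part of posterior lobe cells in these values was not tested. The groups of males overlapped widely, and the log2 fold change of Col25a1 with genotype was −0.63 (SE 1.39, edgeR adjusted p = 0.988). It was 0.57 without replicate 4 of the PE+/− males and −1.71 without all 4 of these libraries (SE 0.83, edgeR adjusted p = 0.988).

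**Figure D4:**
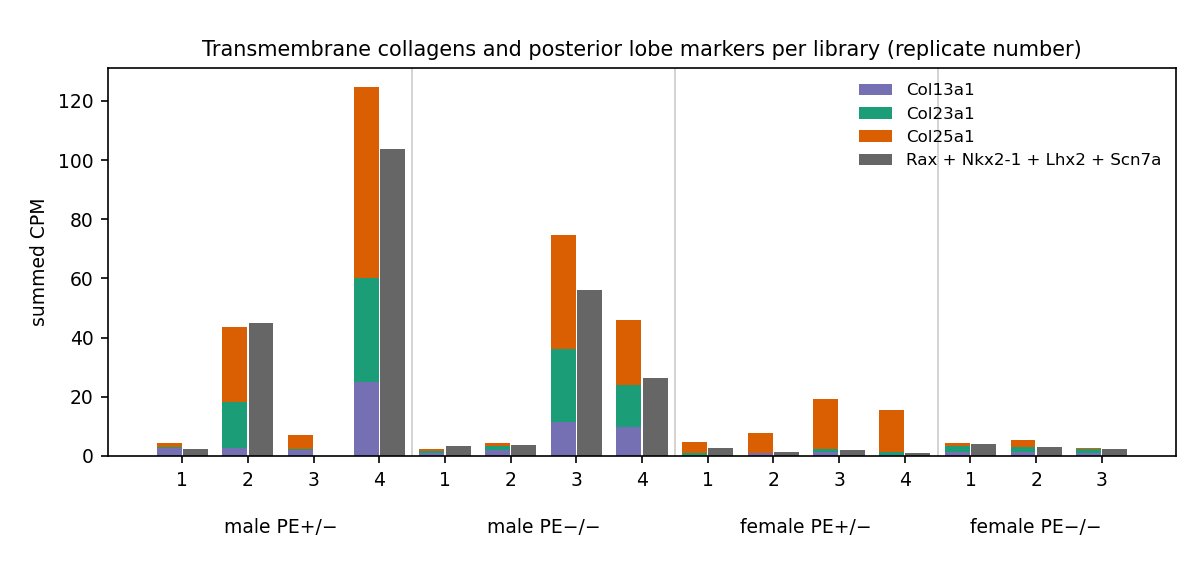
Stacked CPM of Col13a1, Col23a1 and Col25a1 (coloured) and summed CPM of the posterior lobe markers Rax, Nkx2-1, Lhx2 and Scn7a (grey) in each library. Both bars were high in the same 4 male libraries, at 43.6 to 124.7 and 26.4 to 103.6 CPM, and replicates 3 and 4 of the PE+/− females had Col25a1 with few posterior lobe transcripts.

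Females showed a second pattern in Col25a1. It had 3.83, 6.57, 17.0 and 14.4 CPM in PE+/− females and 0.987, 2.44 and 0.394 CPM in PE−/− females, without overlap, while Col13a1 and Col23a1 stayed at or below 2.16 CPM in all 7 libraries. Col13a1 had 0, 1.09, 1.47 and 0.488 CPM in PE+/− females and 1.36, 1.52 and 0.963 CPM in PE−/− females. The log2 fold change of Col25a1 in females was −3.00 (SE 0.76, edgeR adjusted p = 0.115), and DESeq2 called it (adjusted p = 9.35e-04). The posterior lobe markers summed to 1.10 to 2.58 CPM in PE+/− females and to 2.36 to 4.13 CPM in PE−/− females. The part of posterior lobe cells in the female values of Col25a1 was not tested.

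Between the sexes in PE+/−, 9 of 29 collagens had an unadjusted p under 0.05, 5 higher and 4 lower in females, beside 7.29% and 6.18% of all genes. Beside Col1a2, Col11a1, Col27a1 and Col4a4 they were Col6a3, Col13a1, Col14a1, Col23a1 and Col8a2, of which Col6a3 was tested only through the females. Col27a1 and Col14a1, lower in males, and Col13a1 and Col23a1, lower in females, would not have met the low-count filter on that sex alone. Col23a1 (log2 difference −4.41, edgeR adjusted p = 0.249) and Col13a1 (−3.33, edgeR adjusted p = 0.252) were lower in females. For Col13a1 all PE+/− male libraries, at 1.89 CPM or more, stood above the PE+/− females, at 1.47 CPM or less. For both genes the highest male values were in libraries with posterior lobe transcripts. Without these libraries the difference of Col23a1 was 0.13 and that of Col13a1 −1.52. Col8a2 was high in 1 library, with 26.1 CPM in replicate 1 of the PE+/− males and 0.802 to 9.55 CPM in the rest.

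Between the sexes in PE−/−, 0 of 33 collagens passed in edgeR or DESeq2, where 0.0494% of 18217 genes passed in edgeR and 0.227% of all genes in DESeq2. At an unadjusted p under 0.05 there were 1 higher in females and 3 lower, beside 1.63% and 1.74% of all genes. Col16a1 was higher (log2 difference 1.16, SE 0.39) with 1.06, 0.803, 0.421 and 0.682 CPM in PE−/− males and 1.79, 1.85 and 1.36 CPM in PE−/− females, without overlap. Col13a1 (−2.22), Col17a1 (−1.13) and Col25a1 (−3.57) were lower with overlapping groups, and all 4 had an edgeR adjusted p of 0.997. For Col17a1 and Col25a1 the PE−/− females alone would not have met the low-count filter. Without the 2 PE−/− male libraries that held posterior lobe transcripts, the difference was −0.21 for Col13a1 and 0.49 for Col25a1.

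The interaction of genotype and sex called 0 of 36 collagens in edgeR, where 0.161% of 19286 genes passed, and 1 in DESeq2, Col1a2, beside 2.08% of all genes. At an unadjusted p under 0.05 there were 3 with a more negative genotype change in females, Col1a2, Col27a1 and Col11a1, and 2 with a more positive one, Col4a4 (0.92, edgeR adjusted p = 0.476) and Col19a1, beside 5.40% and 4.71% of all genes. Col19a1 was at or under the floor in all PE+/− libraries of both sexes, so the size of its change cannot be given.

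**Figure D5:**
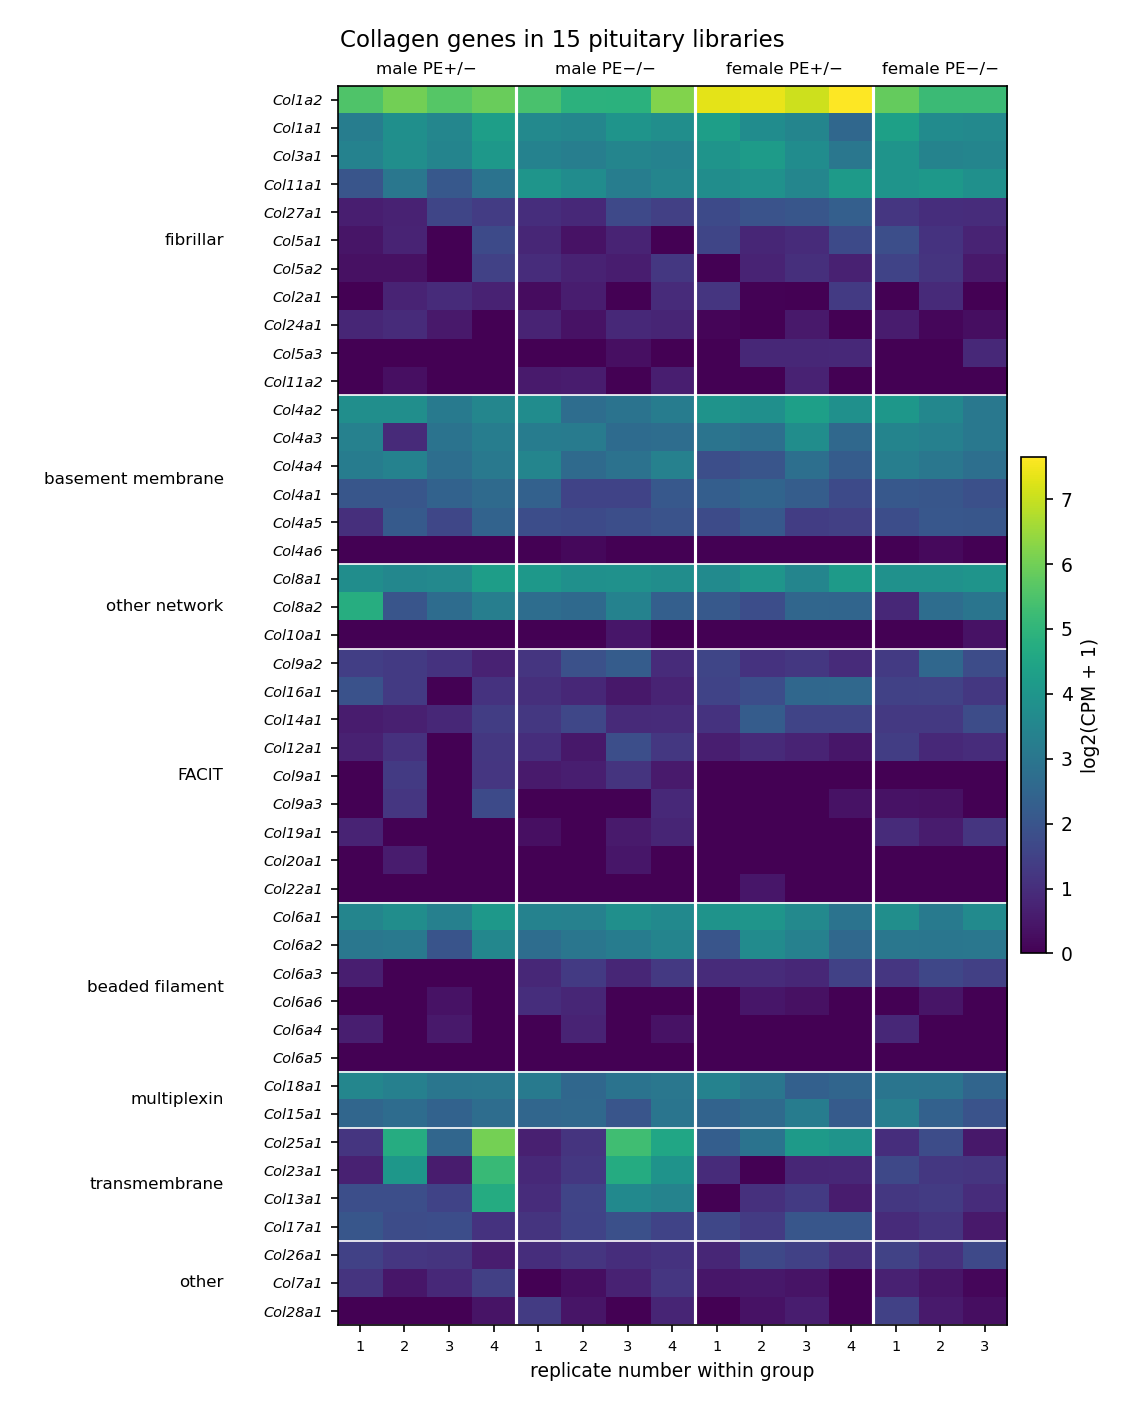
Level of the 44 collagens, log2(CPM + 1), in each of the 15 libraries (columns, replicate number within group), by collagen class. Col1a2 is brightest in the 4 PE+/− female libraries at 133.4 to 199.0 CPM, and Col25a1 and Col23a1 in the 4 male libraries with posterior lobe transcripts.

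By class, the 11 fibrillar genes had a median log2 fold change of −0.18 in females (9 tested, 1 called by edgeR and 2 by DESeq2) and −0.03 in males (9 tested, 0 called by either). The 6 basement membrane genes had medians of 0.22 and −0.12 (5 tested in each sex, 0 called by either), and the 4 transmembrane genes medians of −0.39 and −0.37 (4 tested in each sex, 0 called by edgeR and 1 by DESeq2, Col25a1 in females). Over all genes tested, edgeR called 1.05% in females and 0.132% in males, and DESeq2 called 7.96% and 1.22%. The multiplexins Col15a1 and Col18a1, which carry heparan or chondroitin sulphate in vessel basement membranes, had changes between −0.35 and −0.05 in both sexes. FACIT collagens, which decorate fibrils, were low, with group means at or below 3.55 CPM, reached by Col16a1 in PE+/− females.

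Genes that make, process and bind collagen were followed as lists. Of 20 genes of synthesis in the endoplasmic reticulum, 19 were tested in each sex, with median log2 fold changes of −0.06 in males and −0.09 in females. None of the 19 passed in edgeR in either sex, and DESeq2 called 0 in males and 1 in females, the prolyl isomerase Fkbp14 (log2 fold change 0.57, DESeq2 adjusted p = 0.00269), where it called 7.96% of all genes in females. Of 15 genes of extracellular processing, 10 were tested in males and 11 in females. In edgeR 0 passed in either sex. DESeq2 called 0 in males, beside 1.22% of all genes, and 2 in females, Adamts2 and Pcolce2, beside 7.96%. The smallest p belonged to Adamts2, the protease that removes the amino-terminal propeptide of fibrillar procollagens, with 2.73, 2.64, 10.8 and 2.62 CPM in PE+/− females and 0.494, 0.742 and 0.787 CPM in PE−/− females (log2 fold change −2.78, SE 0.66, edgeR adjusted p = 0.0995, DESeq2 adjusted p = 0.00123). The males had 0.774, 2.36, 4.08 and 1.36 CPM in PE+/− and 0.960, 0.191, 0.421 and 0.853 CPM in PE−/− (log2 fold change −1.83, SE 0.66, edgeR adjusted p = 0.685), with overlap. In both sexes the PE−/− libraries alone would not have met the low-count filter for Adamts2. Pcolce2, an enhancer of procollagen cleavage, went the other way in females (log2 fold change 0.96, SE 0.23, edgeR adjusted p = 0.103).

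The chaperone of procollagen, Serpinh1, had 581.3 to 732.8 CPM in PE+/− females and 422.5 to 516.0 CPM in PE−/− females, without overlap (log2 fold change −0.43, SE 0.14, edgeR adjusted p = 0.195). Of 15 partners of type IV collagen in the basement membrane, 14 were tested in females and 12 had a log2 fold change above 0 (median 0.39). In edgeR 0 passed, and DESeq2 called 4, Nid2, Lamb2, Lamc1 and Agrn, all higher in PE−/− females, beside 7.96% of all genes. The smallest p were those of Nid2, a nidogen that links laminin to type IV collagen, at 11.6 to 18.7 CPM in PE+/− and 25.7 to 30.2 CPM in PE−/− females (log2 fold change 0.97, SE 0.21, edgeR adjusted p = 0.085), and of the laminin chain Lamb2 (1.09, SE 0.25, edgeR adjusted p = 0.0922). In males 6 of 13 were above 0 (median −0.03), and 0 passed in edgeR or DESeq2.

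Of the 12 collagen receptors, 10 collagen proteases and 8 collagen-binding proteoglycans, 0 passed in edgeR in either sex. In females DESeq2 called 2 of the 8 proteases tested, Mmp2 and Mmp15, beside 7.96% of all genes. It called 0 genes of these lists otherwise, beside 1.22% of all genes in males. The proteases had a median log2 fold change of 0.35 in females (8 tested, 6 above 0), with Mmp2, a gelatinase, at 1.65 to 6.26 CPM in PE+/− and 9.86 to 12.1 CPM in PE−/− females (log2 fold change 1.32, SE 0.41, edgeR adjusted p = 0.174), and of 0.02 in males. The receptors had medians of −0.18 in males and −0.03 in females, and the proteoglycans of −0.16 and −0.14. Among the marker lists, the genes past the threshold with genotype in edgeR were pituitary hormones, Lhb in both sexes and Prl in females. DESeq2 also called Fshb in both sexes and, in females, Aldh1a2, Sox9, Rgs5, Hapln1 and Mbp.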

How the data were processed

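RNA of whole pituitary glands was sequenced as paired ends from 15 libraries. The authors describe trimming by cutadapt, alignment by STAR (mm10) and counting by featureCounts with its defaults. What they deposited are estimated counts of genes (expected counts), whole numbers that were not normalized. About 4 counts stood for 1 fragment, since the value 5 was found 1.41 times as often as the values next to it (34455 genes of 1 transcript). Gene names are those of a transcript assembly, which the methods do not mention. Strand use is not given in the sources used here, so overlapping genes are uncertain. Coordinates are of GENCODE M21 (mm10).

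Columns were matched to samples by name, with 0 left over. Tests used edgeR 4.0.16 in R 4.3.3 on the whole table, with filterByExpr (minimum count 10, minimum total 15), TMM factors, the quasi-likelihood F test, Benjamini-Hochberg adjustment over all genes tested and a threshold of 0.05, two-sided. The standard error is the log2 fold change over the square root of F. CPM used TMM-scaled totals of all 15 libraries. Levels per kilobase used the longest coding transcript. Fits used the libraries compared, and the interaction all 15. The common coefficient of variation was 41.3% to 46.9%. Intervals are 95%, and floors cover counting error only, as reads had no molecular identifiers. Replicates differed by more than counting noise (chi-square per degree of freedom 22.0 to 70.7). The scripts were tested on simulated data.

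Values in every library are given for Col1a1, Col1a2, Col3a1, Col4a1, Col4a2 and Col6a1, for collagens past the threshold and for the 3 with the smallest p in each comparison. Of the gene lists, members past the threshold or up to 2 with the smallest p were named. Other collagens, Col23a1, Col8a2 and Col4a3 among them, were named after their values were seen. The members and lists were chosen with earlier results of these data known. Alternatives were DESeq2 1.42.0, its size factors, library totals, other low-count filters, the likelihood ratio test, counts divided by 4, one fit over all 15 libraries, a block for the replicate number, leaving out each library and, added after seeing the data, leaving out the 4 libraries with posterior lobe transcripts. Isolated gonadotropes were not analysed here.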

Additional observations from a re-analysis of the deposited data

Results flagged for a closer look

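Among 45 groups of 4 libraries of the collagens named, 3 held a library far from the other 3 (Dixon's test at the 95% level), and chance alone gives about 1 such group in 20. Col13a1 stood at 25.1 CPM in replicate 4 of the PE+/− males, where the other 3 had 1.89 to 2.60 CPM. This library also had the highest sum of posterior lobe markers, and the part of such cells in the value was not tested. Col6a3 stood at 1.77 CPM in replicate 4 of the PE+/− females, where the next library had 0.937 CPM. Col6a3 was also at 0.563 CPM in replicate 1 of the PE+/− males and at 0 in the other 3, all at or under the floor of 12 counts.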

How the results depend on the processing

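The count of collagens past the threshold stayed at 0 in males and between the sexes of PE−/− under every alternative run. In females it was 1 (Col1a2) and became 3 with DESeq2 and 3 with the likelihood ratio test (Col1a2, Col25a1 and Col27a1), and leaving out single libraries gave 0 to 1. Between the sexes of PE+/− it was 1 and became 4 with DESeq2 (Col1a2, Col4a4, Col11a1 and Col23a1), 2 with the likelihood ratio test, 2 in the fit on all 15 libraries (both Col1a2 and Col11a1) and 0 without the 4 male libraries with posterior lobe transcripts, and leaving out any single library kept it at 1. For the interaction it was 0 and became 1 with DESeq2 (Col1a2), and leaving out single libraries gave 0 to 1, the 1 being Col6a3 without replicate 1 of the PE+/− males. The causes of these differences were not tested.

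The log2 fold change of Col1a2 lay between −2.18 and −1.84 in females and between 1.5 and 1.80 between the sexes of PE+/− in all alternatives. Signs turned for several collagens. In males Col1a1 was 0.037 with library totals and 0.20 without the 4 libraries with posterior lobe transcripts, and leaving out single libraries gave −0.18 to 0.22. In the same comparison Col6a1 ran from −0.26 to 0.028, Col25a1 (−0.63 with all libraries) from −1.61 to 0.57 and Col27a1 from −0.016 to 0.64, and Col27a1 was −0.49 without the 4 libraries. In females Col3a1 ran from −0.38 to 0.0069 and Col6a1 from −0.34 to 0.046. Between the sexes of PE+/−, Col1a1 ran from −0.46 to 0.12 and was 0.29 without the 4 libraries, where Col23a1 turned from −4.41 to 0.13. Between the sexes of PE−/−, Col1a2 ran from −0.24 to 0.36, was 1.09e-04 with no low-count filter and 0.25 without the 4 libraries, where Col25a1 turned from −3.57 to 0.49.

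Replicate numbers showed no clear pairing of the libraries, since the deviations of same-numbered libraries correlated at −0.081 to 0.132. Same-numbered libraries were the closest of their comparison in none of 4 pairs in males. In females they were the closest in 2 of 3 pairs, too few to decide whether the numbers pair these libraries. With the replicate number as a block the count was 0 in females (Col1a2 −1.87, edgeR adjusted p = 0.207) and 0 between the sexes of PE+/− (Col1a2 1.61, edgeR adjusted p = 0.117), Col1a1 was 0.018 in males, and Col1a2 was 0.36 between the sexes of PE−/−. The block changed no other count. Depth limits the collagens near 12 counts, such as Col6a3, whose smaller changes would not be detectable here.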
